A study of Mus musculus with 11 samples.

Results

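The genes described here are 9 genes known from plasma cells and from the secretory machinery of antibody-producing cells, namely Jchain, Mzb1, Tnfrsf17, Irf4, Prdm1, Xbp1, Derl3, Txndc5 and Sdc1. They were taken by gene symbol from the annotated table of counts, and all 9 were found among its 54232 genes. Counts came from bulk RNA sequencing of whole ovaries of WT mice at 3 ages. By title, 4 libraries belonged to the 2 month group, 4 to the 18 month group and 3 to the 24 month group, no treatment was labelled, and the series describes these ages as young, old and post-reproductive. The library names carry 8 weeks for the 2 month group and 22 months for the 24 month group. The labels give neither the strain nor the number of animals behind a library, so p-values reflect only how far these samples lie apart, which may be technical.

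Depth was 26061630 to 33407509 counts per library, except for 18 month replicates 3 and 4 with 5231724 and 8892915. The counts of these 2 libraries differed by about counting noise, with a chi-square of 1.10 per gene over 17173 genes against 28.7 for the next pair of the same age. They were summed and counted as 1 sample, called 18 month replicate 3 from here on, which leaves 4, 3 and 3 samples. All 12 markers on the list for ovarian cells had counts at every age. Their summed level was 17340 to 39990 CPM (counts scaled by TMM-adjusted library size) at 2 months, 12660 to 20660 CPM at 18 months and 3328 to 13210 CPM at 24 months.

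Plasma cells are the end stage of the B cell lineage and release antibody in large amounts. The transcription factors Irf4 and Prdm1 drive the B cell towards this state, and Xbp1, which is switched on by a splicing event during the unfolded protein response, enlarges the endoplasmic reticulum (ER). Mzb1, Derl3 and Txndc5 work in the ER, Jchain links antibody units into polymers, Tnfrsf17 receives a survival signal at the cell surface, and Sdc1 (CD138) is the proteoglycan used to sort plasma cells. Several of these genes are also used by other secretory and epithelial cells, so a count in a whole ovary does not name the cell that made it.

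Promoters are shown for 3 genes because they were the members whose ages differed most in opposite directions, Jchain and Derl3, and the only other member with a complete unfolded protein response motif, Txndc5. Sequences are from RefSeq on GRCm38.p6, and 8 of the 9 members matched its table of promoters. Mzb1 did not, so it was not searched for motifs. The 250 bases before the annotated start of Derl3 (chr10:75893148-75893397, plus strand) are printed with the ER stress response element in capitals at its 2 fixed ends. On the printed strand the element reads in reverse complement, from 156 to 138 bases before the start.
Derl3: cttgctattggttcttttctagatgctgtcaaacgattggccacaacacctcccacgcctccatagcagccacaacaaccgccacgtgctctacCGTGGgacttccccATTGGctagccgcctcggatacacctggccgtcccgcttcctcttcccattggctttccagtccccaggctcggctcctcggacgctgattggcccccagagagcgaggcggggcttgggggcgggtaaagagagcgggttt
The 250 bases before the start of Jchain (chr5:88527898-88528147, minus strand) held none of the motifs searched and carry no capitals.
Jchain: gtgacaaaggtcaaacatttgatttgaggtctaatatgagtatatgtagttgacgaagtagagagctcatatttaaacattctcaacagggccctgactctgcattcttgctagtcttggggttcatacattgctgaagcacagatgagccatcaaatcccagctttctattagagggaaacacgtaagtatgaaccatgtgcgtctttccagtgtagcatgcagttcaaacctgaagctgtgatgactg
For Txndc5, 30 bases (chr13:38528034-38528063, minus strand) before 1 of its 3 annotated starts are printed with the unfolded protein response element in capitals, 138 to 131 bases before that start.
Txndc5: ggcctcgccgcTGACGTGGcgctagccgcc

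The motifs were searched on both strands of the 250 bases before each of 32851 annotated starts of 27025 genes. The ER stress response element, written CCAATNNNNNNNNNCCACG, stood in 37 windows (0.113%), and Derl3 was the only member searched to hold it. The unfolded protein response element TGACGTGG stood in 185 windows (0.563%), and among members searched in Txndc5 alone, where it overlaps a CCACG on the other strand. The octamer ATGCAAAT, known from immunoglobulin promoters, stood in 526 windows (1.60%) and in no member searched. The only window for Prdm1 lay inside the deposited span of that gene, not at its upstream end. The short parts of the first element are common, CCAAT in 33.8% of windows and CCACG in 28.3%, and the Derl3 window held 5 and 3 of them. A match describes letters only, and no match says only that these letters are not in this window.

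The 9 genes did not share 1 age pattern. At 24 months against 2 months, Jchain and Irf4 were higher and Sdc1 and Derl3 were lower, so 4 of the 8 members that could be tested passed an adjusted p of 0.05, against 35.0% of all 20331 genes tested (19.2% higher and 15.8% lower). At 18 months against 2 months, Jchain was higher and Derl3 lower, 2 of 8 members against 11.6% of all genes (6.04% higher and 5.51% lower). At 24 months against 18 months 0 of 8 members passed in edgeR, DESeq2 and limma-voom, and 0 had an unadjusted p under 0.05 in edgeR, against 1 gene of all tested that passed (0.00492%), Ptpn5. In that comparison 2108 of all genes had an unadjusted p under 0.05 in edgeR, and DESeq2 called 194. The median log2 fold change of the 8 members was -0.09 at 24 months against 2 months and -0.10 at 18 months against 2 months, beside 0.03 and 0.01 for all genes tested. The comparisons with 2 months share the same 4 samples. Tests are by edgeR (quasi-likelihood), with p adjusted by Benjamini-Hochberg over all genes tested. In whole-ovary RNA, fewer cells of a type and less RNA per cell cannot be told apart.

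**Figure D1:**
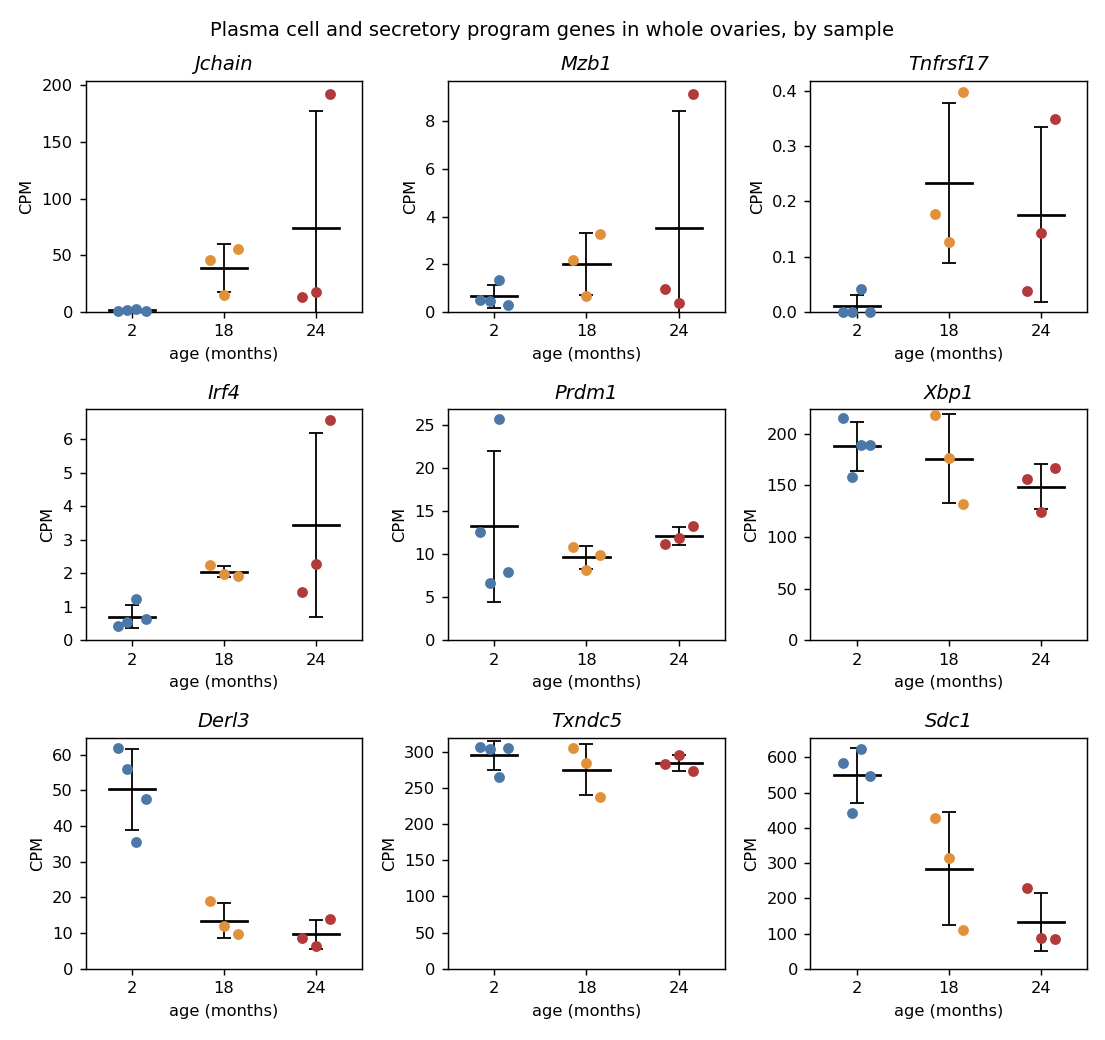
CPM of each member (vertical axis, linear, from 0) against age in months (horizontal axis). Each point is 1 sample (4 at 2 months, 3 at 18 months and 3 at 24 months), the long bar is the mean and the whiskers are the SD, cut off at 0 where they reach below it. Jchain, Mzb1 and Irf4 each have 1 high sample at 24 months, Derl3 and Sdc1 are highest at 2 months, and Txndc5 lies between 237 and 307 CPM throughout.

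Jchain, on chromosome 5 (88519809 to 88527891, minus strand, coordinates of the deposited table on mm10), encodes the joining chain of polymeric IgA and IgM. Its level was 0.965, 1.37, 2.72 and 0.548 CPM in the 4 samples at 2 months, 45.7, 14.9 and 55.7 CPM in the 3 samples at 18 months, and 13.4, 17.2 and 193 CPM in the 3 samples at 24 months. Every sample of both older ages lay above every 2 month sample, and 24 month replicate 3 stood far above all others. In counts, these were 18 to 67 for the 2 month samples, 472 to 1290 for the 18 month samples and 358 to 6631 for the 24 month samples.

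At 24 months Jchain averaged 74.5 ± 102.5 CPM (SD, n = 3), against 1.40 ± 0.942 CPM at 2 months (SD, n = 4). The log2 fold change was 5.76 ± 1.06 (SE), with an adjusted p of 0.00532 in edgeR, and all 3 samples at 24 months were higher. Without 24 month replicate 3 the log2 fold change was 3.49 and the adjusted p 0.00867. At 18 months the mean was 38.8 ± 21.3 CPM (SD, n = 3), and against 2 months the log2 fold change was 4.81 ± 1.03 (SE) with an adjusted p of 0.0228. That call was lost without 2 month replicate 1, 2 or 4, without 18 month replicate 3 and without a count filter, with adjusted p between 0.0625 and 0.0755 in edgeR. At 24 months against 18 months the log2 fold change was 0.95 ± 0.96 (SE) with an adjusted p of 0.729, and without 24 month replicate 3 it was -1.33.

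Irf4, on chromosome 13 (30749226 to 30766976, plus strand), encodes a transcription factor of activated B cells and plasma cells that T cells and dendritic cells also use. Its level was 0.414, 0.559, 1.22 and 0.639 CPM at 2 months, 2.23, 1.99 and 1.92 CPM at 18 months, and 1.455, 2.28 and 6.57 CPM at 24 months. The older samples again lay above all 2 month samples, the 18 month samples were close together, and 24 month replicate 3 was again the highest.

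Irf4 averaged 3.43 ± 2.75 CPM at 24 months (SD, n = 3) and 0.708 ± 0.353 CPM at 2 months (SD, n = 4), a log2 fold change of 2.28 ± 0.53 (SE) with an adjusted p of 0.0111 in edgeR. Without 24 month replicate 3 the log2 fold change was 1.43 and the adjusted p 0.0344. At 18 months the mean was 2.05 ± 0.164 CPM (SD, n = 3), and the log2 fold change against 2 months was 1.54 ± 0.53 (SE) with an adjusted p of 0.0863 in edgeR. The same difference passed in DESeq2 with an adjusted p of 0.0368 and in limma-voom with 0.0229. It also passed in edgeR with only these ages in the fit (0.0250) and without 24 month replicate 3 (0.0271). These were the only 4 alternatives that gained the call, and 16 did not, with adjusted p up to 0.200 in edgeR. Between 24 and 18 months the log2 fold change was 0.75, with an adjusted p of 0.637, and it was -0.12 without 24 month replicate 3.

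Mzb1, on chromosome 18 (35647266 to 35649367, minus strand), encodes an ER protein that helps antibody assembly in marginal zone B cells and plasma cells. Its level was 0.517, 0.466, 1.34 and 0.274 CPM at 2 months, 2.16, 0.662 and 3.25 CPM at 18 months, and 0.970, 0.370 and 9.16 CPM at 24 months. The groups overlapped, and 24 month replicate 3 was the highest sample by far. The log2 fold change was 2.45 ± 1.02 (SE) at 24 months against 2 months, with an adjusted p of 0.0870 in edgeR, and 0.07 without 24 month replicate 3, with an adjusted p of 0.957. It passed in DESeq2 with an adjusted p of 0.0332, and in edgeR without 24 month replicate 2 with 0.0456. At 18 months against 2 months it was 1.63 ± 1.02 (SE) with an adjusted p of 0.316. In the gene annotation used here for exon lengths, exons of another gene on the same strand cover 695 bases of Mzb1. That annotation gives Mzb1 other coordinates than the deposited counts do, and the deposited counts hold no row for the other gene. Whether this overlap touched the counts is not known. Counts and level per length of Mzb1 are thus less certain than those of the other members.

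Tnfrsf17 (BCMA), on chromosome 16 (11313812 to 11320074, plus strand), encodes the receptor through which APRIL and BAFF keep plasma cells alive. It had 0, 0, 1 and 0 counts in the 4 samples at 2 months, 5, 4 and 6 counts at 18 months, and 1, 5 and 12 counts at 24 months. The samples of the older ages all held at least 1 count, and 24 month replicate 1 was no higher in counts than 2 month replicate 3. The gene failed the filter on low counts and was not tested in the main fit. Summed over samples, 18 counts at 24 months against 1 at 2 months gave a rate ratio of 22.2 (95% exact interval 3.50 to 924). For 15 counts at 18 months against that 1 count it was 23.7 (3.65 to 999), and for 24 months against 18 months 0.935 (0.445 to 1.99). These intervals cover counting error only. With no count filter, edgeR gave adjusted p of 0.0280 at 24 months and 0.04965 at 18 months, each against 2 months and over 37758 genes. Other alternatives that tested the gene were divided at 18 months against 2 months. The adjusted p in edgeR was 0.0227 with 11 libraries apart and 0.0299 without 24 month replicate 1. It did not pass without 18 month replicate 1 (0.0651), 18 month replicate 2 (0.0765) or 24 month replicate 2 (0.0590).

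Prdm1 (Blimp-1), on chromosome 10 (44437177 to 44528501, minus strand), encodes the repressor that ends the B cell program, and it acts in germ cells and several epithelia as well. Its level was 12.65, 6.62, 25.8 and 7.91 CPM at 2 months, 10.9, 8.20 and 9.87 CPM at 18 months, and 11.2, 11.95 and 13.3 CPM at 24 months. The 2 month samples spanned the whole range of the older ones, with replicate 3 far above the rest. The log2 fold change was -0.12 at 24 months against 2 months (adjusted p = 0.834 in edgeR) and -0.45 at 18 months against 2 months (adjusted p = 0.499). Without 2 month replicate 3 these were 0.40 and 0.07, so no direction is given for Prdm1.

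Xbp1, on chromosome 11 (5520659 to 5525893, plus strand), encodes the transcription factor of the unfolded protein response, and counts per gene do not separate its spliced and unspliced forms. Its level was 215, 158, 189.5 and 189 CPM at 2 months, 218, 176 and 132 CPM at 18 months, and 156, 124 and 166.5 CPM at 24 months. The 3 groups overlapped. The log2 fold change was -0.34 ± 0.18 (SE) at 24 months against 2 months, with an adjusted p of 0.172 in edgeR and 0.0380 in limma-voom, and -0.10 at 18 months against 2 months, with an adjusted p of 0.760.

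Derl3, on chromosome 10 (75893413 to 75895941, plus strand), encodes derlin-3, a protein of the ER membrane that helps to remove misfolded proteins. Its level was 61.85, 56.0, 35.45 and 47.6 CPM at 2 months, 19.0, 11.9 and 9.675 CPM at 18 months, and 8.62, 6.26 and 14.0 CPM at 24 months. All older samples lay below all 2 month samples, and the lowest 2 month sample was replicate 3. Means were 9.62 ± 3.96 CPM at 24 months (SD, n = 3) and 50.2 ± 11.5 CPM at 2 months (SD, n = 4), a log2 fold change of -2.38 ± 0.34 (SE) with an adjusted p of 0.00249 in edgeR. At 18 months Derl3 averaged 13.5 ± 4.85 CPM (SD, n = 3), and against 2 months the log2 fold change was -1.89 ± 0.33 (SE) with an adjusted p of 0.0144. That call was lost without 18 month replicate 2 (adjusted p = 0.0502) or 18 month replicate 3 (0.0555). Between 24 and 18 months the log2 fold change was -0.49 with an adjusted p of 0.619.

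Sdc1, on chromosome 12 (8771323 to 8793715, plus strand), encodes syndecan-1, which coats plasma cells and also many epithelial cells. Its level was 584, 442, 622 and 546 CPM at 2 months, 428, 313 and 110 CPM at 18 months, and 229, 87.3 and 85.5 CPM at 24 months. All 18 and 24 month samples lay below the lowest 2 month sample, and the 2 older ages overlapped. Sdc1 averaged 134 ± 82.4 CPM at 24 months (SD, n = 3) and 548 ± 77.7 CPM at 2 months (SD, n = 4), a log2 fold change of -2.03 ± 0.49 (SE) with an adjusted p of 0.0135 in edgeR. Without 24 month replicate 1 it was -2.65. At 18 months the mean was 284 ± 161 CPM (SD, n = 3), and the log2 fold change of -0.95 ± 0.47 (SE) against 2 months did not pass (adjusted p = 0.208).

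Txndc5, on chromosome 13 (38500079 to 38528824, minus strand), encodes a protein disulfide isomerase of the ER. Its level was 307, 304, 265 and 305 CPM at 2 months, 305, 284 and 237 CPM at 18 months, and 283, 295.5 and 273 CPM at 24 months. The groups overlapped and the lowest sample was 18 month replicate 3. The log2 fold change was -0.06 at 24 months against 2 months (adjusted p = 0.725 in edgeR) and -0.10 at 18 months against 2 months (adjusted p = 0.597). Exons of Bmp6 and Gm31834 on the opposite strand overlap 224 and 311 bases of its exons.

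**Figure D2:**
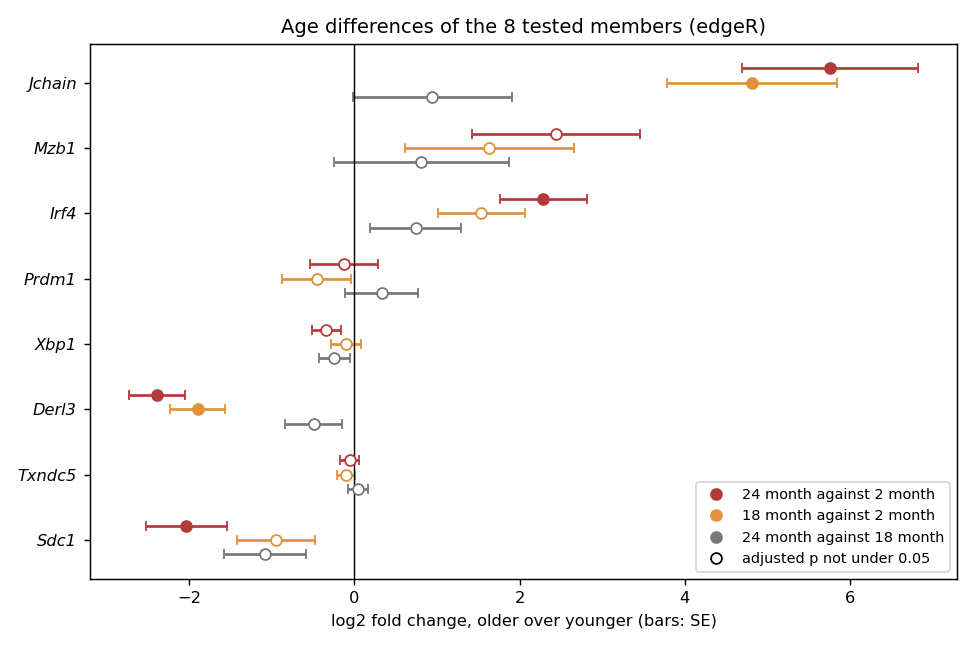
Log2 fold change of the 8 tested members (horizontal axis, older over younger) for 3 comparisons, with bars for the SE of edgeR's estimate. Filled points passed an adjusted p of 0.05. Jchain is at 5.76 and 4.81 against 2 months and Derl3 at -2.38 and -1.89, and no point of 24 against 18 months is filled.

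Levels between the members were compared per length, as mean CPM per kilobase of exon. At 2 months Sdc1 was the highest with 144, followed by Txndc5 with 65.7, Xbp1 with 57.8, Derl3 with 25.2 and Prdm1 with 2.37, and Jchain stood sixth with 0.556, beside Mzb1 with 0.534. At 24 months Txndc5 was the highest with 63.2, followed by Xbp1 with 45.9, Sdc1 with 35.2 and Jchain with 29.6, ahead of Derl3 with 4.83. At 18 months the order began with Sdc1 at 74.5, Txndc5 at 61.3, Xbp1 at 54.1 and Jchain at 15.4. Tnfrsf17 was at 0.0125, 0.287 and 0.216 at 2, 18 and 24 months, and it was the lowest of the 9 at each age. Neighbours such as Jchain and Mzb1 at 2 months, or Sdc1 and Jchain at 24 months, did not differ beyond their spread over samples.

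Jchain was then set beside antibody transcripts in each sample. The summed counts of the 12 immunoglobulin constant region genes were 337 to 718 for the 2 month samples, 5312 to 15910 for the 18 month samples and 3510 to 82409 for the 24 month samples. Per 1000 of these counts, Jchain had 59.45, 94.02, 93.3 and 53.4 counts at 2 months, 81.1, 88.9 and 86.7 at 18 months, and 102, 91.3 and 80.5 at 24 months. The ratio thus lay between 53.4 and 102 in all 10 samples while the immunoglobulin counts spanned 337 to 82409, and the 3 groups overlapped. How the authors' counting treated reads shared by near-identical immunoglobulin genes was not given. Such reads may be missing from the sum, and their effect on the ratio was not tested.

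For Mzb1 the same ratio was 31.85, 32.1, 46.0 and 26.7 per 1000 at 2 months, 3.83, 3.95 and 5.05 at 18 months, and 7.41, 1.96 and 3.82 at 24 months. Its older samples all lay below its 2 month samples on this scale. Derl3 had 3809, 3853, 1216 and 4644 counts per 1000 immunoglobulin counts at 2 months, 33.6, 70.8 and 15.1 at 18 months, and 65.8, 33.2 and 5.84 at 24 months. In each 2 month sample Derl3 counts thus outnumbered all immunoglobulin constant region counts. The make-up of the immunoglobulin counts differed as well. Ighm, the constant region of IgM, made up 29.1% to 53.7% of them in 2 month samples, 4.14% to 11.01% in 18 month samples and 3.31% to 22.6% in 24 month samples.

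**Figure D3:**
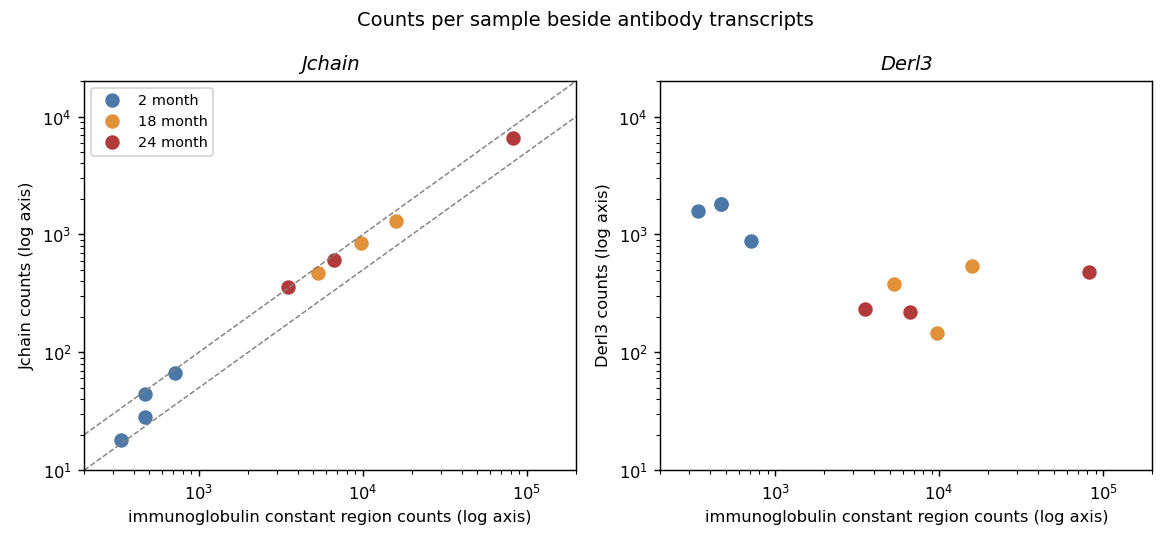
Counts of Jchain (left) and Derl3 (right) per sample against summed immunoglobulin constant region counts, both on log axes, with samples coloured by age. The dashed lines mark 50 and 100 Jchain counts per 1000 immunoglobulin counts. Jchain runs along these lines in all samples, whereas Derl3 counts are highest in the 2 month samples, where immunoglobulin counts are lowest.

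The closest genes to each member were ranked by the root mean square difference of log2 CPM. Each gene was centred on its mean over the 10 samples. The ranking covered 15577 tested genes with an established symbol, and immunoglobulin variable, diversity and joining segments were left out of it. The closest genes describe likeness across samples of 3 ages and carry no test. For Jchain, whose own root mean square deviation was 2.61, they were Igkc at 0.408, Igha at 0.439 and Slpi at 0.623. Mzb1, with a deviation of 1.41, was closest to Cd79a at 0.630, Fbll1 at 0.646 and Ceacam1 at 0.694. For Irf4, with 1.06, they were Ptger4 at 0.276, Lat at 0.289 and Jaml at 0.291. Of these, Igkc and Igha are antibody constant regions, Cd79a is part of the B cell receptor and Lat is an adaptor of the T cell receptor.

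For Derl3, with a deviation of 1.15, the closest genes were Uchl1 at 0.282, Apoc3 at 0.297 and Pin1rt1 at 0.305. Uchl1 is a ubiquitin hydrolase abundant in neurons and oocytes. For Sdc1, with 1.09, they were Adam2 at 0.318, Olfr765 at 0.390 and Nxf2 at 0.393. Olfr765 and Pin1rt1 had only 2 and 9 counts summed over the 24 month samples, where their log2 CPM depends on the prior count of 2. Sdc1 and Derl3 differed from each other by 0.697, whereas Derl3 differed from Jchain by 3.58, which placed it 15213th among the genes ranked for Jchain. Mzb1 was 285th and Irf4 255th for Jchain.

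**Figure D4:**
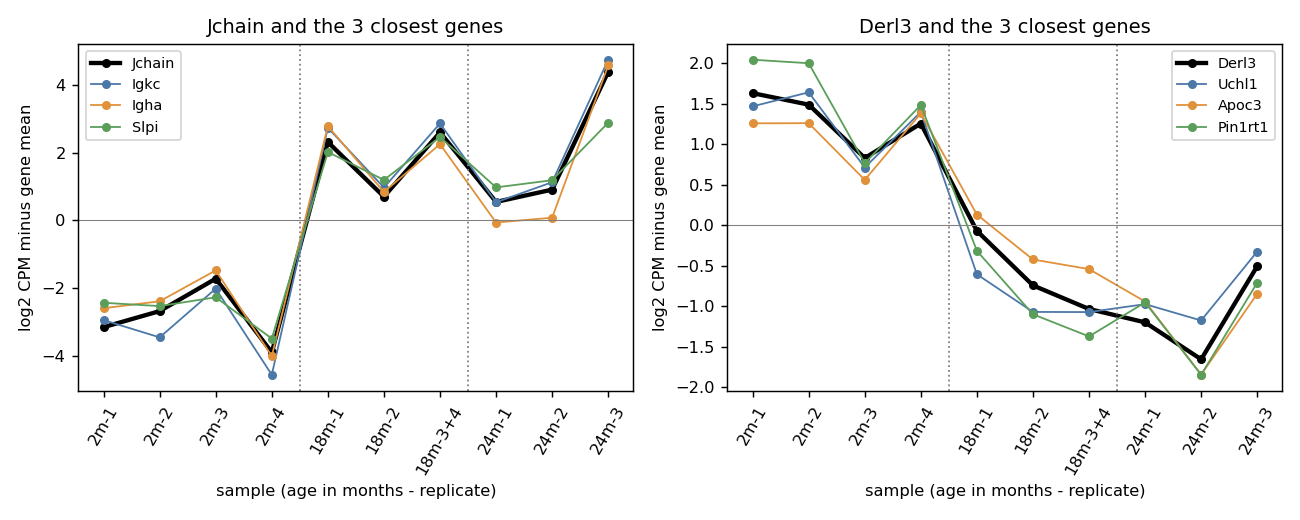
Log2 CPM minus the mean of each gene (vertical axis) in the 10 samples (horizontal axis, age in months and replicate, 18m-3+4 being the summed libraries) for Jchain and Derl3, each with its 3 closest genes. Lines only join the points of a gene, and dotted lines separate the ages. Igkc and Igha follow Jchain up to 24 month replicate 3, and Derl3 and its neighbours lie above their means at 2 months and below them at 24 months.

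Other genes of the same biology were counted in lists by role, to be read against the 19.2% of all genes tested that were higher and 15.8% that were lower at 24 months against 2 months, and 6.04% and 5.51% at 18 months against 2 months. Of 12 immunoglobulin constant region genes, 10 were tested, and 9 were higher and 0 lower at 24 months against 2 months, with a median log2 fold change of 5.93 beside 0.03 for all genes. With a replicate block and only these ages 5 were higher, and 6 without 24 month replicate 3. At 18 months against 2 months 8 were higher and 0 lower, with a median of 5.61, but only 1 was called without 2 month replicate 1, 2 or 4 or without 18 month replicate 3, and 3 without a count filter. Igkc, the kappa light chain constant region and the most abundant of them, averaged 389 ± 553 CPM at 24 months (SD, n = 3) and 4.81 ± 3.34 CPM at 2 months (SD, n = 4), with a log2 fold change of 6.35 ± 1.15 (SE) and an adjusted p of 0.00501 in edgeR. Ighg2b, Ighg2c and Ighg3, IgG heavy chain constant regions, had log2 fold changes of 7.46, 9.27 and 6.64.

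Among 16 tested further plasma cell genes, 8 were higher and 2 lower at 24 months against 2 months, where 19.2% and 15.8% of all genes were, so the number lower was no larger a share than among all genes. The median log2 fold change was 0.65, beside 0.03 for all genes. For 18 months against 2 months 2 were higher, beside 6.04% of all genes. The 8 were Tnfrsf13b, Slamf7, Pou2af1, Cd38, Zbp1, Itga4, Ly6k and Gpr55, and the 2 were Ell2 and Cd28. At 24 months the counts were 5 higher and 1 lower without 2 month replicate 1 or 24 month replicate 2, and 4 and 1 with a replicate block and only these ages. Slamf7, a surface receptor of plasma cells and other leukocytes, averaged 5.92 ± 3.04 CPM at 24 months and 0.895 ± 0.305 CPM at 2 months, with a log2 fold change of 2.73 ± 0.47 (SE) and an adjusted p of 0.00413. Ell2, the elongation factor that favours the secreted form of the heavy chain in plasma cells, moved the other way, with 25.1 ± 2.00 CPM at 24 months and 81.2 ± 30.75 CPM at 2 months and a log2 fold change of -1.69 ± 0.32 (SE). Gpr55, a lipid receptor, had a log2 fold change of 4.21. Creb3l2, a membrane-bound transcription factor and the most abundant of the list, had one of -0.05 with an adjusted p of 0.786.

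Of 9 tested genes of the plasma cell survival niche, 7 were higher and 0 lower at 24 months against 2 months (median 0.92), and 4 were higher at 18 months, where 19.2% and 6.04% of all genes were higher. With a replicate block and only the ages compared, 2 were higher at 24 months and 2 at 18 months. Tnfsf13, which encodes APRIL, averaged 5.11 ± 2.73 CPM at 24 months and 1.20 ± 0.297 CPM at 2 months, with a log2 fold change of 2.09 ± 0.39 (SE) and an adjusted p of 0.00537 in edgeR. Tnfsf13b, which encodes BAFF, averaged 9.03 ± 1.91 CPM at 24 months and 2.16 ± 0.162 CPM at 2 months, with a log2 fold change of 2.07 ± 0.21 (SE) and an adjusted p of 0.00138. Both ligands bind the receptor encoded by Tnfrsf17. Cxcl13, a chemokine that draws B cells, had a log2 fold change of 3.20 ± 0.61 (SE), and Lgals1, the most abundant gene of the list, had one of -0.33 with an adjusted p of 0.470. Without 2 month replicate 1, 2 or 4 or without 18 month replicate 2 or 3, 2 genes were called at 18 months against 2 months.

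The secretory side of the program was measured with 24 ER chaperones and folding enzymes of the Xbp1 and Atf6 branches. At 24 months against 2 months 0 were higher and 16 lower, with a median log2 fold change of -0.74, beside 15.8% lower and a median of 0.03 for all genes. At 18 months against 2 months 0 passed in edgeR, with a median of -0.32 and 3 at an unadjusted p under 0.05. In that comparison DESeq2 called 1 lower, limma-voom 2, and edgeR 6 without 18 month replicate 1. The number called lower at 24 months was 5 to 8 without 2 month replicate 1, 24 month replicate 2 or 24 month replicate 3, or with a replicate block and only these ages. P4hb, a disulfide isomerase, averaged 628 ± 43.8 CPM at 24 months (SD, n = 3) and 1071 ± 44.2 CPM at 2 months (SD, n = 4), with a log2 fold change of -0.77 ± 0.17 (SE) and an adjusted p of 0.00926. Calr, the lectin chaperone calreticulin, had a log2 fold change of -1.02 ± 0.23 (SE), and Pdia6, another isomerase, one of -0.78. The summed level of the list was 9305 to 11650 CPM at 2 months, 5941 to 10430 CPM at 18 months and 5299 to 7094 CPM at 24 months.

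Of 29 genes of signal peptide cleavage, the translocon and export from the ER, 8 were lower and 0 higher at 24 months against 2 months (median -0.37), where 35.0% of all genes were called and 15.8% were lower. The 8 lower are a larger share than the 15.8% of all genes, and 28 of the 29 log2 fold changes were negative. Counting either direction, the share called at 24 months was smaller than among all genes, since 0 were higher. The 2 lower at 18 months against 2 months are a share near the 5.51% of all genes. Ssr2, a subunit of the translocon-associated complex, had a log2 fold change of -0.72 ± 0.15 (SE) with an adjusted p of 0.00812 in edgeR, and the cargo receptor Lman1 had one of -1.24. Srp14, part of the signal recognition particle, had one of -0.75, and Ssr3, the most abundant of the list, one of -0.25 that did not pass. The number called at 24 months was 1 to 3 without 2 month replicate 1, 24 month replicate 2 or 24 month replicate 3, 1 with a replicate block and only these ages, and 3 when samples were scaled by library totals alone.

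**Figure D5:**
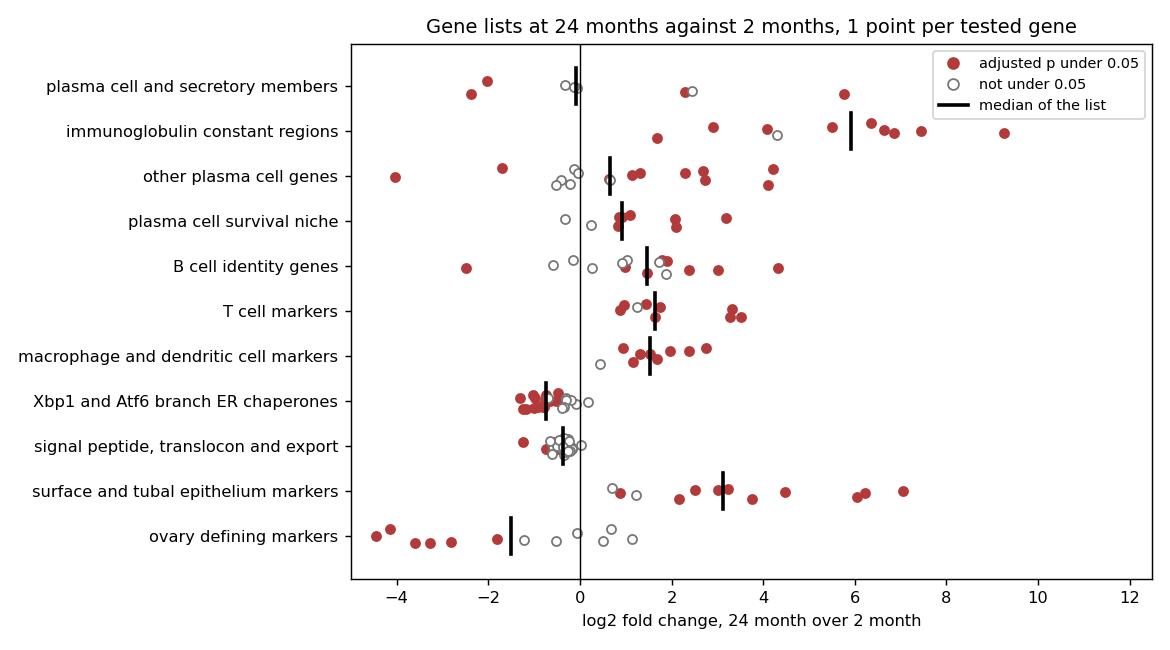
Log2 fold change at 24 months over 2 months (horizontal axis) of each tested gene in 11 lists (rows), filled where the adjusted p was under 0.05 in edgeR, with a bar at the median of each list. The immunoglobulin list lies wholly above 0 with a median of 5.93, the ER chaperone list mostly below it with a median of -0.74, and the 8 members spread from -2.38 to 5.76.

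Markers of other cell types were measured beside these results, and their part in them was not tested. Their counts at 24 months against 2 months stand beside 19.2% of all genes higher and 15.8% lower. Of 15 tested B cell identity genes, 7 were higher and 1 lower at 24 months against 2 months, and 3 or fewer were higher without 2 month replicate 1, 2 or 4, without 24 month replicate 3, or with a replicate block and only these ages. Of 9 T cell markers 8 were higher at 24 months, 5 without 2 month replicate 1, 2 or 4 and 3 without 24 month replicate 3 or with a replicate block and only these ages, with a summed level of 20.5 to 55.9 CPM against 9.20 to 13.4 CPM at 2 months. Of 9 macrophage and dendritic cell markers 8 were higher, with summed levels of 383 to 405.5 CPM at 24 months and 128 to 173 CPM at 2 months.

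Markers of the surface and tubal epithelium, cells that can express Sdc1, were higher for 10 of 12 genes at 24 months against 2 months, for 6 without 24 month replicate 3 or with a replicate block, and for 3 with the block and only these ages. Their summed level was 230.5 to 1712 CPM at 24 months and 123 to 161 CPM at 2 months, with the highest value in 24 month replicate 3, the sample that also led Jchain, Mzb1 and Irf4. Of 12 ovary markers 6 were lower and 0 higher at 24 months against 2 months, and 3 of the log2 fold changes were positive. Under the alternatives run, 4 to 9 of these markers were called. Star, the cholesterol transporter of steroid-making cells, had a log2 fold change of -3.59, and the oocyte genes Zp3 and Ddx4 had -4.45 and -3.28. No marker of these 5 lists was at 0 in all samples of an age.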

How the data were processed

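RNA of whole ovaries was extracted with Trizol and a column with DNase digestion, and libraries came from an Illumina kit for stranded mRNA sequencing, as the labels' protocols state. Raw counts of reads per gene, with 1 column for each library, are what the authors deposited. The submitters' processing notes name FastQC, cutadapt, STAR and HTSeq and the build mm10. Their versions, the gene annotation and the counting strand were not given in the sources used here, so reads of overlapping genes cannot be assigned with certainty.

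Groups follow the titles. The members and gene lists were chosen with earlier results of these data known. The 18 month replicates 3 and 4 were summed after the chi-square check. Genes were kept by edgeR's filterByExpr (20331 of 54232, minimum count 10), scaled by TMM. The test was the quasi-likelihood F-test of edgeR (4.0.16, in R 4.3.3, robust, two-sided) with all 3 ages in 1 fit, at an adjusted p of 0.05. CPM use TMM factors, and the log2 CPM behind the likeness had a prior count of 2. Precision is limited by 3 or 4 samples per age and, for Tnfrsf17 and other genes of few counts, by counting error.

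Named genes are all members and, of each other list, the 3 with the smallest adjusted p at 24 against 2 months and the most abundant. Further names that count a list's calls were chosen after their values were seen. A few list genes that this rule names are not reported here.

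Each result was recomputed with the size factors of DESeq2, library totals, no or a stricter count filter, DESeq2 1.42.0, limma-voom (limma 3.58.1), only the ages compared, a replicate block, all 11 libraries apart and leaving out each sample. A block with only the ages compared was added after the data were seen. The deviations of same-numbered samples from their age means correlated at 0.398, 0.283 and 0.148 for 24 and 18 months. Those of differently numbered samples correlated at -0.339 to 0.144. This was treated as a possible pairing of that comparison, although the labels do not say what a number shares. The values given for each member at 24 against 18 months in the Results come from fits without the block. With the block 0 members and 0 genes were called in that comparison.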

Additional observations from a re-analysis of the deposited data

Results flagged for a closer look

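The 48 members and named list genes were checked for a sample far from the others of the 2 month group, the only group of 4, and chance flags about 1 in 20. Txndc5 had 265 CPM in 2 month replicate 3, where the other samples had 304 to 307 CPM. Tnfrsf17 had 0.0406 CPM in 2 month replicate 3, which is 1 count, where the others had 0. With the others at 0 any count is flagged, so the 1 in 20 does not apply to Tnfrsf17. Lck, a kinase of T cells, had 4.87 CPM in 2 month replicate 4, where the others had 3.88 to 3.96 CPM. The cause of these values was not tested.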

How the results depend on the processing

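The number of members called at 24 months against 2 months was 4 to 6 under every alternative run, and 0 between 24 and 18 months. At 18 months against 2 months it was 2, and 0 to 3 when a sample was left out. These numbers include Tnfrsf17 under the alternatives that tested it, but not in the main fit. Without a count filter the 2 at 18 months were Derl3 and Tnfrsf17, and Jchain lost its call. Of 480 values of the members under alternatives, 452 kept direction and side of the threshold, 7 lost and 7 gained a call and 14 turned direction. For the named list genes, only comparisons with 2 months that the main fit called were followed. Of these 1136 values, 93 lost the call and 0 turned, which is not comparable with the members, whose uncalled values were included. Of 440 counts of called genes per list, 107 moved by more than 1.5 times. Library totals moved the median log2 fold change of all genes by 0.18 at 24 months and 0.09 at 18 months, each against 2 months, and by 0.10 at 24 against 18 months, and Jchain, Irf4, Sdc1 and Derl3 kept their calls with them. The cause of these shifts was not tested.

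All genes called at 18 months against 2 months were 2349, and 1034 with the replicate block, 541 with the block and only these ages, 4000 with 11 libraries apart, 4052 in DESeq2 and 375 to 2748 without 1 sample. At 24 months against 2 months 7120 were called, 5129 with the replicate block, 1952 with the block and only these ages, and 4283 to 7467 without 1 sample. In these comparisons with 2 months, same-numbered deviations correlated at -0.109 to 0.074 and differently numbered ones at -0.191 to 0.247. These few correlations show no pairing by number, and they cannot exclude one. Between 24 and 18 months 1 gene was called, and 0 with library totals, with the replicate block, with only these ages and with both, 194 in DESeq2 and 0 to 2 without 1 sample. Library totals gave 5048 higher and 1869 lower genes at 24 months (TMM 3906 and 3214) and 1326 and 662 at 18 months (TMM 1228 and 1121), each against 2 months.

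The values that turned direction were not called. Without 1 sample, those between 24 and 18 months ranged from -0.12 to 1.12 for Irf4, -1.33 to 1.44 for Jchain, -1.58 to 1.35 for Mzb1 and -0.0547 to 0.12 for Txndc5. Those at 24 months against 2 months ranged from -0.32 to 0.40 for Prdm1, and those at 18 months against 2 months from -0.66 to 0.0743 for Prdm1 and -0.27 to 0.0719 for Xbp1. In limma-voom Jchain was at -0.51 and Mzb1 at -1.33 between 24 and 18 months, and Prdm1 at 0.36 at 24 months and 0.0205 at 18 months against 2 months. With library totals Prdm1 was at 0.11 and Txndc5 at 0.125 at 24 months against 2 months, and with the block and only these ages Mzb1 was at -0.12 between 24 and 18 months. DESeq2 gave no adjusted p for 51, 51 and 1234 genes at 18 against 2, 24 against 2 and 24 against 18 months.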

Other observations

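Genes of early B cells were also measured. Of 6 B cell precursor markers 1 was tested, Vpreb3, a partner of the B cell receptor during maturation, with a log2 fold change of 0.58 ± 0.64 (SE) at 24 months against 2 months and an adjusted p of 0.506 in edgeR. Their summed level was 2.355 to 2.86 CPM at 2 months, 1.13 to 1.89 CPM at 18 months and 1.11 to 7.735 CPM at 24 months. Rag2 was at 0 counts in all samples at 2 and 18 months, and Dntt in all at 18 months. Blk, a kinase of B cells, averaged 3.28 ± 2.56 CPM at 24 months (SD, n = 3) and 0.162 ± 0.0894 CPM at 2 months (SD, n = 4), with a log2 fold change of 4.32 ± 0.75 (SE) and an adjusted p of 0.00439. Bcl6, the germinal centre repressor and the most abundant B cell identity gene, had a log2 fold change of -0.59 with an adjusted p of 0.159.

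In the 2 month group, replicate 3 had the highest level of Jchain, Mzb1, Irf4, Tnfrsf17, Prdm1 and the summed immunoglobulin constant regions. It had the lowest level of Derl3 and Txndc5. Sdc1 was also highest in replicate 3, at 622 CPM against 442 to 584 CPM in the other 2 month samples. The summed ovary markers were highest there too, at 39990 CPM. Sdc1 was lower in all older samples, so for Sdc1 replicate 3 lay farthest from the older ages.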
